A study of Rattus norvegicus with 18 samples.

Results

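Haemoglobin is made from alpha and beta globin chains and haem, and the genes followed here are Hba-a2 and Hbb, which encode those chains, Alas2, which encodes the erythroid enzyme that starts haem synthesis, and Slc4a1, which encodes band 3, the anion exchanger of the red cell membrane. The 4 genes were chosen by name as genes of red blood cells and their precursors. They correspond to 5 gene identifiers (IDs), because Hba-a2 is the name of ENSRNOG00000029886 and of ENSRNOG00000047321, among 32285 IDs counted in retina and 32552 in RPE/choroid. Hbb is ENSRNOG00000058105, Alas2 is ENSRNOG00000000167 and Slc4a1 is ENSRNOG00000020951. The retina table carries the alpha globin IDs under the names Hba1 and Hba2, and all 5 IDs were found in both tissues.

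Mature mammalian red cells have no nucleus and make no new mRNA, while reticulocytes, the youngest circulating red cells, still carry globin mRNA left from the bone marrow. The choroid, which lies behind the retinal pigment epithelium (RPE), is one of the most densely perfused tissues of the body, and the inner retina has its own vessels. Haem released from red cells is degraded by haem oxygenases, and free haemoglobin and haem are bound in plasma by haptoglobin and haemopexin.

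The study compared the transcriptome of the neural retina and of the RPE/choroid of female wild-type Fischer344 rats, an inbred strain used as a natural model of aging, in 3 groups with 3 libraries each per tissue (18 libraries). Young rats were 4 months old and untreated, aged rats received plain water and were killed at 24 months, and the third group were aged rats given 8-aminoguanine (8-AG), a purine, at 5 mg/kg per day in drinking water for 8 weeks from 22 months of age. Libraries were made from poly-A RNA of tissue dissected after the cornea, iris and lens were removed, the RPE/choroid ones with a step for low RNA amounts, and the 3 retina libraries of 8-AG rats are the only ones whose molecule label reads total RNA, so that label and the treatment cannot be told apart. Among the RPE/choroid libraries, young 1 and 2 carry the same number in their labels, 1 with the letter L and 1 with R, as do aged 1 and 2. These may be the left and right eyes of 1 rat, which is not stated. If so, these groups of n = 3 hold 2 rats, and the p-values below measure the spread between libraries, part of which may be technical.

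Total counts ran from 12283458 to 15644346 in retina and from 28573828 to 48203050 in RPE/choroid. Summed rod photoreceptor markers (14 IDs) stood at 36820 to 63490 CPM (counts scaled to a common library total) in retina, and summed RPE markers (10 IDs) at 6124 to 18920 CPM in RPE/choroid against 266 to 583 CPM in retina. RPE/choroid libraries also held rod markers, from 632 CPM in aged 2 to 56510 CPM in 8-AG 1. Levels below are CPM scaled by TMM (trimmed mean of M-values), which applies 1 scale factor to each library. It does not remove differences in tissue content, such as those in rod markers. They are compared between libraries for 1 gene at a time and never between genes, since CPM is not divided by gene length.

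Promoters are shown because Hba-a2, Hbb and Alas2 moved together across the libraries of both tissues, as described below. The 250 bases before the transcription start were taken from RefSeq, build GRCr8, which held 3 of the 4 genes. Capitals mark 4 motifs on either strand, namely GATAA, the core bound by GATA factors, CACCC, the box bound by KLF1 and related factors, CCAAT, and TATAAA. Of 33469 promoter windows of the same length, GATAA stood in 23.5%, CACCC in 49.2%, CCAAT in 34.0% and TATAAA in 12.9%, so that a match is a description and not a site of binding. The Hba-a2 window is chr10:15829139-15829388 on the minus strand.
Hba-a2: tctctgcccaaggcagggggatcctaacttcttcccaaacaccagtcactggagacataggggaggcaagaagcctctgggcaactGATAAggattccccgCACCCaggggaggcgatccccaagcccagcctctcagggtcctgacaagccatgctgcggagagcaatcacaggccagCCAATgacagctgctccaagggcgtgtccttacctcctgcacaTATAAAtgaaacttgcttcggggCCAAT
It held GATAA 164 bases, CACCC 149 bases, CCAAT 71 and 5 bases and TATAAA 28 bases before the start. The Hbb window is chr1:167663722-167663971 on the minus strand.
Hbb: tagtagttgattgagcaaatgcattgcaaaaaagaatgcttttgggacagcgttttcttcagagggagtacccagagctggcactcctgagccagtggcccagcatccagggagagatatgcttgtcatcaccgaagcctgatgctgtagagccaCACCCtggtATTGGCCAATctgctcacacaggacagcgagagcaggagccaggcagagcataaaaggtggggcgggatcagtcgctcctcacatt
It held CACCC 95 bases and CCAAT 81 bases before the start on the gene's strand, and CCAAT on the other strand 86 bases before it, so that these matches abut. The Alas2 window is chrX:22895200-22895449 on the plus strand.
Alas2: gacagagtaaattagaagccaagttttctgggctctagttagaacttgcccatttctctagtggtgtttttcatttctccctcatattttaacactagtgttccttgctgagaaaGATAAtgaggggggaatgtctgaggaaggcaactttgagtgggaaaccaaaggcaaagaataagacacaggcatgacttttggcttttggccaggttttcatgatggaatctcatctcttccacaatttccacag
It held GATAA 135 bases before the start and none of the other 3 motifs in this window. Slc4a1 is named only.

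In retina, the question was whether age and 8-AG changed the level of these transcripts. Every member was higher in all 3 aged libraries than in any young one, by very different amounts, since aged 2 stood far above aged 1 and 3. Hbb, the beta chain, was at 20.5, 21.2 and 12.4 CPM in young 1, 2 and 3, at 37.0, 175 and 41.9 CPM in aged 1, 2 and 3, and at 24.8, 63.4 and 35.3 CPM in 8-AG 1, 2 and 3. The young and aged groups did not overlap, the 8-AG group lay above the young one, and 8-AG 2 exceeded 2 of the 3 aged libraries. The group means were 18.0 ± 4.92 CPM in young, 84.7 ± 78.4 CPM in aged and 41.2 ± 19.9 CPM in 8-AG retina (SD, n = 3).

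The alpha globin IDs had a similar order. ENSRNOG00000029886 stood at 20.8, 18.7 and 11.3 CPM in young, 38.04, 182 and 42.1 CPM in aged and 27.4, 61.6 and 33.3 CPM in 8-AG libraries 1, 2 and 3. ENSRNOG00000047321 stood at 9.02, 7.51 and 5.92 CPM in young, 15.4, 102 and 17.03 CPM in aged and 10.1, 30.5 and 16.04 CPM in 8-AG libraries. Both IDs were lowest in young 3 and highest in aged 2, and 8-AG 2 was the second highest. The IDs are near-identical copies, so reads could be divided between them by the counting, and their sum is the safer measure. Summed, they had a 16.5-fold range, with 17.2 CPM in young 3 the lowest and 284 CPM in aged 2 the highest value, against 14.1-fold for Hbb.

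The erythroid enzyme gene Alas2 was near the detection limit in retina, with 5, 3 and 2 counts in young, 12, 58 and 6 counts in aged and 5, 13 and 7 counts in 8-AG libraries 1, 2 and 3. These counts are 0.385, 0.225 and 0.136 CPM in young, 0.932, 3.70 and 0.415 CPM in aged and 0.384, 1.06 and 0.468 CPM in 8-AG retina. The aged libraries again did not overlap the young ones, aged 2 held most of the reads of its group, and the 8-AG libraries overlapped both other groups. Slc4a1, the band 3 gene, had 2, 0 and 0 counts in young, 9, 105 and 9 counts in aged and 3, 15 and 2 counts in 8-AG libraries. In CPM over the group, the summed counts were 63.7-fold higher in aged than in young retina, with an exact 95% interval of 17.2 to 531 that covers counting error only and rests on 2 counts in the young group. Of the 123 aged counts, aged 2 held 105, and without it, a choice made after seeing the data, the ratio was 14.7, with an interval of 3.51 to 130.3. A 0 at this depth allows up to 3 counts in a library.

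**Figure D1:**
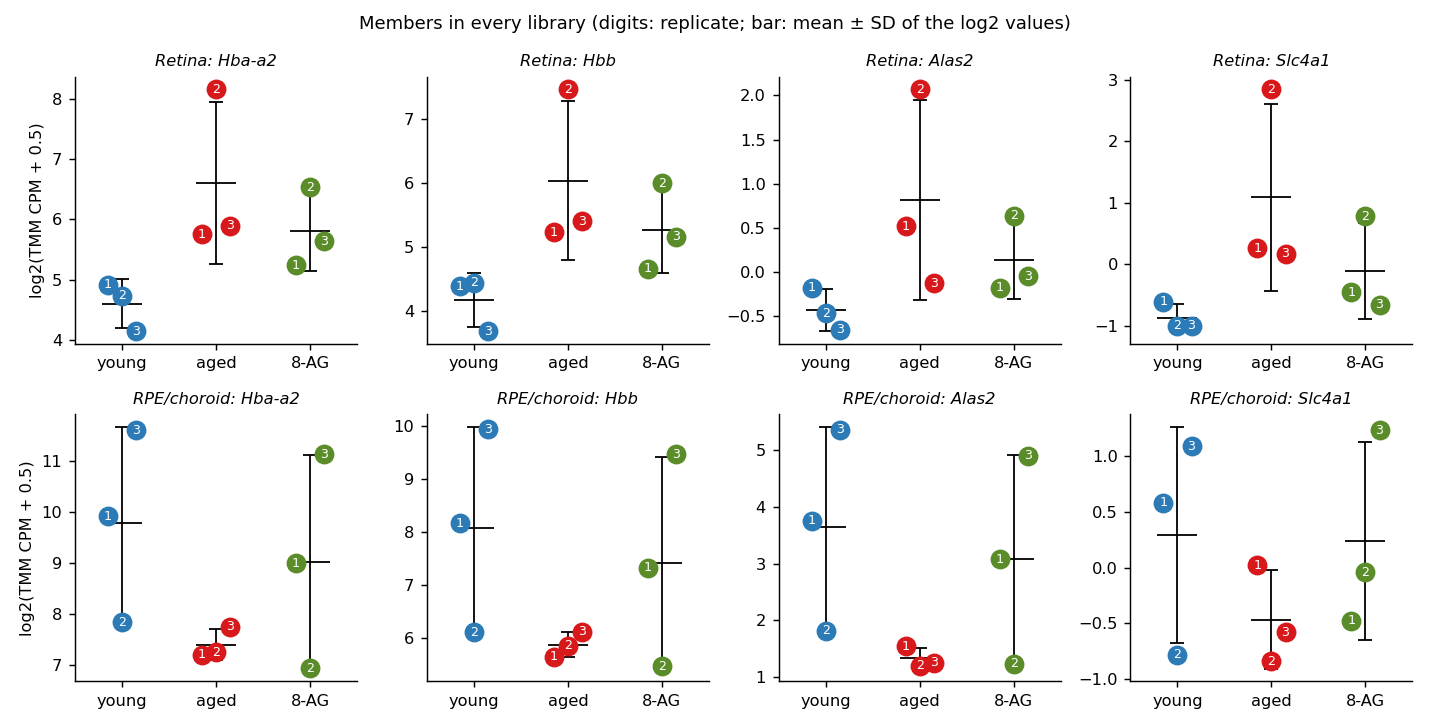
Level of each member in every library, as log2(TMM CPM + 0.5), with the IDs of Hba-a2 summed, in retina (top) and RPE/choroid (bottom). Digits name the replicate and bars give the mean ± SD over the 3 libraries of a group. Aged 2 is the highest retina library for all 4 genes, and in RPE/choroid young 3 and 8-AG 3 are the highest.

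A gene was called when its fold change exceeded 1.5 and its unadjusted p was under 0.05, in edgeR's quasi-likelihood test on all genes of the 2 groups compared. The study gives the same thresholds without saying whether its p was adjusted. Between aged and young retina, ENSRNOG00000029886 rose by 2.38 ± 0.85 (log2 fold change ± SE), a 5.20-fold difference (Benjamini-Hochberg adjusted p = 0.162, edgeR). ENSRNOG00000047321 differed by 2.60 ± 1.02 (adjusted p = 0.196, edgeR) and Hbb by 2.24 ± 0.82 (adjusted p = 0.172, edgeR), and neither was called. The unadjusted p ran from 0.0460 for the called ID to 0.0615. Alas2 and Slc4a1 did not pass the filter on low counts and were not tested. Thus 1 of the 3 IDs tested was called higher, while 6.45% of all 14588 genes tested were. The aged and young groups did not overlap, aged higher, for these 3 IDs and for 18% of the genes tested. The 3 IDs move together and share reads in part, so they are not 3 independent results. Alas2 and Slc4a1, outside the genes tested, did not overlap either, Alas2 by only 0.415 CPM in aged 3 against 0.385 CPM in young 1. Bulk RNA cannot tell a larger number of cells of a type from more RNA per cell.

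The size of this difference rested on aged 2, and its direction did not. Without that library the log2 fold changes were 1.25 for ENSRNOG00000029886, 1.12 for ENSRNOG00000047321 and 1.14 for Hbb, and all 3 IDs were called (adjusted p = 0.0830, adjusted p = 0.00196 and adjusted p = 0.0771, edgeR). ENSRNOG00000029886 lost its call without young 1, without young 2 or without young 3, with log2 fold changes of 2.56, 2.46 and 2.15. No other globin ID was called there. Alas2 was called at 3.20 without young 1, but in these fits with 2 young libraries it passed the filter only through aged libraries, where it was high. Without aged 1 the calls were ENSRNOG00000029886 and Hbb, and without aged 3 they were ENSRNOG00000029886, Alas2 and Slc4a1. The last 2 were not tested with all libraries and passed the filter here only through aged 1 and 2, where they were high. Such calls of Alas2 and Slc4a1 do not add to the result for the globins. Markers of other cells differed between the same groups. Summed microglia and macrophage markers (12 IDs) were 81.9 to 82.6 CPM in young and 183 to 284 CPM in aged retina, highest in aged 2. T and B cell markers (11 IDs) were 4.70 to 4.93 CPM in young and 9.75 to 15.1 CPM in aged retina, also highest in aged 2. Only 1 of these 11 IDs passed the count filter, with a log2 fold change of 1.48. Rod markers were lower in aged retina, at 36820 to 41400 CPM against 58560 to 63490 CPM, while endothelial markers (11 IDs) summed to 702 to 766 CPM in young and 674 to 787 CPM in aged retina, with aged 2 the lowest. Gene by gene, 10 of the 11 endothelial markers had a positive log2 fold change, with a median of 0.57, and 3 were called higher. RPE markers were positive for 7 of 10 IDs, with a median of 0.83 and none called, and their sum was lowest in aged 2, at 266 CPM. Their part in the result was not tested.

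Against aged retina, no member was called in 8-AG retina. The log2 fold changes were -1.11 ± 0.83 for ENSRNOG00000029886, -1.26 ± 1.02 for ENSRNOG00000047321, -1.05 ± 0.83 for Hbb and -1.44 ± 0.85 for Alas2 (p from 0.136 to 0.280, adjusted p = 0.996, edgeR). Slc4a1 was not tested. None of the 4 IDs tested had an unadjusted p under 0.05, DESeq2 called 1 of the 5 IDs, and 0.431% of 14631 genes were called lower. Without aged 2 the globin values turned direction, to 0.02, 0.22 and 0.06, and Alas2 moved to -0.08. The negative globin values rested on aged 2, and the aged and 8-AG groups overlapped for every member. Among markers of other cells, log2 fold changes were positive for 9 of 9 RPE markers tested (median 0.73) and 11 of 14 rod markers (median 0.19) and negative for 10 of 11 endothelial markers (median -0.19), with none called. Their part in the result was not tested.

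Against young retina, globin transcripts were higher in 8-AG retina. This comparison uses no aged library without treatment, but it shares its young libraries with the comparison of aged and young retina, so the results are not independent. The log2 fold changes were 1.27 ± 0.43 for ENSRNOG00000029886, 1.34 ± 0.47 for ENSRNOG00000047321 and 1.19 ± 0.45 for Hbb, that is 2.42-fold, 2.53-fold and 2.29-fold. All 3 IDs tested were called higher, while 6.5% of 14542 genes were. They move together and share reads in part, and with the globin paralogs summed 1 ID was called. The unadjusted p of edgeR ran from 0.0329 to 0.0483 and the adjusted p from 0.131 to 0.167. The groups did not overlap, 8-AG higher, for these 3 of the 5 IDs and for 17.7% of genes. Without young 1 only ENSRNOG00000029886 was called, and none was without young 2, without young 3 or without 8-AG 3. The log2 fold change of Hbb in these 4 fits was 1.30, 1.33, 0.98 and 1.30. With the aged libraries in the same fit none was called. Markers of other cells differed as well, with 11 of 12 microglia and macrophage markers called higher in 8-AG than in young retina (median log2 fold change 1.97), 1 of 9 RPE markers called higher (8 positive, median 1.62) and 4 of 14 rod markers called lower (all 14 negative, median -0.52). Their part in the result was not tested.

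In RPE/choroid, the mean levels were lower in the aged than in the young group. For Hba-a2, Hbb and Alas2 the 3 aged libraries were low and close together, whereas the young and 8-AG groups each held 1 very high, 1 intermediate and 1 low library. Slc4a1, at low counts, varied 8.76-fold among the aged libraries. Hbb stood at 286, 68.1 and 981 CPM in young 1, 2 and 3, at 49.3, 57.0 and 68.7 CPM in aged 1, 2 and 3, and at 160, 43.5 and 704 CPM in 8-AG 1, 2 and 3. Young 3 was the highest library and 8-AG 2 the lowest, and young 2 lay at the level of aged 3. The means were 445 ± 477 CPM in young, 58.3 ± 9.73 CPM in aged and 303 ± 353 CPM in 8-AG RPE/choroid (SD, n = 3), so that the SD exceeded the mean in both groups with a high library.

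The alpha globin IDs followed this pattern. ENSRNOG00000029886 was at 690, 164 and 2253 CPM in young, 105, 106 and 149 CPM in aged and 362, 85.2 and 1595 CPM in 8-AG libraries 1, 2 and 3. ENSRNOG00000047321 was at 275, 64.0 and 850 CPM in young, 41.3, 45.5 and 64.1 CPM in aged and 146, 36.8 and 639 CPM in 8-AG libraries. For the former the young and aged groups did not overlap, and for the latter young 2 and aged 3 were practically equal. The summed alpha globin level ran from 122 CPM in 8-AG 2 to 3103 CPM in young 3, a 25.4-fold range.

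Alas2 was well detected in RPE/choroid. It stood at 13.0, 3.02 and 40.4 CPM in young, 2.42, 1.80 and 1.89 CPM in aged and 7.96, 1.86 and 29.4 CPM in 8-AG libraries 1, 2 and 3. The aged libraries all lay under the young ones, and the 8-AG group spanned both. Its range was 22.5-fold, as it was for Hbb. Slc4a1 had 30, 3 and 78 counts in young, 16, 2 and 5 counts in aged and 7, 17 and 85 counts in 8-AG libraries. Its level was at most 1.86 CPM, the groups overlapped, and the same 2 libraries, young 3 and 8-AG 3, were the highest.

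Between aged and young RPE/choroid, both alpha globin IDs, Hbb and Alas2 fell. Alas2 had a log2 fold change of -3.21 ± 0.92, which is 9.28-fold lower in aged tissue. The alpha globin IDs had -3.12 ± 0.92 (ENSRNOG00000029886) and -2.99 ± 0.90 (ENSRNOG00000047321), and Hbb had -2.94 ± 0.92. Slc4a1 had -1.86 ± 1.16 and was not called. The unadjusted p of edgeR ran from 0.0130 for Alas2 to 0.0190 for Hbb and was 0.160 for Slc4a1. Thus 4 of 5 IDs were called lower, where 0.636% of 16047 genes were. These 4 move together and share reads in part, so they are not 4 independent results (adjusted p = 0.99998 for each, edgeR). No gene of this comparison had an adjusted p under 0.05 by edgeR, although 217 were called at the unadjusted threshold, and DESeq2 gave 29.

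The fall was smaller without young 3, at -1.99 for Alas2, -1.85 and -1.78 for the alpha globin IDs and -1.62 for Hbb, and all 4 were still called, with unadjusted p from 0.0269 to 0.0396 (edgeR). Calls fell to 1 without aged 1 and to 2 without aged 2, with log2 fold changes of Hbb of -2.85 and -2.93. Hbb also lost its call without aged 3, at -3.06, and all 5 IDs were called without young 2. Summing the libraries that share a label number left the same 4 called. Endothelial markers moved in the same direction, with sums of 6526 to 8772 CPM in young and 4077 to 5884 CPM in aged RPE/choroid, and 2 of the 10 IDs tested were called lower. Within the young group, young 3 had the highest endothelial and the lowest rod sum, 8772 and 2023 CPM. Markers of platelets and of T and B cells overlapped between these groups, with 23.8 to 45.5 CPM in young and 20.2 to 53.2 CPM in aged tissue for platelets (5 IDs) and 120 to 194 against 130 to 240 CPM for T and B cells. Gene by gene, log2 fold changes were positive for 10 of 11 T and B cell markers (median 0.41) and negative for 13 of 14 rod markers (median -0.47), with none called. Neutrophil markers (8 IDs) moved opposite to the globins, with 10.2 to 17.8 CPM in young and 18.9 to 33.2 CPM in aged tissue, and 3 of 8 were called higher, beside 0.717% of all genes. The part of these cells in the result was not tested.

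Between 8-AG and aged RPE/choroid, which shares its aged libraries with the comparison above, Alas2 rose by 2.70 ± 0.99 on the log2 scale, or 6.48-fold (adjusted p = 0.99997, edgeR). The globins had log2 fold changes of 2.51 ± 1.03, 2.46 ± 1.01 and, for Hbb, 2.39 ± 0.98, and Slc4a1 had 1.78 ± 1.10. The unadjusted p of edgeR was 0.0360 for Alas2, from 0.0526 to 0.0534 for the globins and 0.157 for Slc4a1. The 1 of 5 IDs called stands beside 1.24% of 16257 genes called higher. Without 8-AG 3 the value of Alas2 was 1.27 and no member was called. Nor was any called without aged 1, aged 2 or aged 3 or with the libraries sharing a label number summed, where the value of Alas2 was 2.83, 2.62, 2.64 and 2.74, while 4 were called without 8-AG 1 or without 8-AG 2. The lowest 8-AG library lay under all 3 aged ones for both alpha globin IDs and Hbb. Summed neutrophil markers (8 IDs) were also highest in 8-AG 3, at 77.5 CPM against 6.19 to 33.2 CPM in the 8 others, while 8-AG 1 stood apart by its rod markers and by endothelial markers of 740 CPM. Gene by gene, log2 fold changes were positive for 14 of 14 rod markers (median 1.01) and negative for 10 of 10 endothelial markers tested (median -0.26) and 11 of 11 T and B cell markers (median -0.61), with none called. Their part in the result was not tested.

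Between 8-AG and young RPE/choroid, log2 fold changes were -0.61 ± 1.31, -0.53 ± 1.28, -0.56 ± 1.29, -0.52 ± 1.24 and -0.09 ± 1.19 for the alpha globin IDs, Hbb, Alas2 and Slc4a1, with p from 0.661 to 0.944 (edgeR). None was called, none had an unadjusted p under 0.05, and 1.99% of 16215 genes were called in either direction. The direction rested on young 3. Without it the log2 fold changes were positive for all 5 IDs, at 0.70 and 0.72 for the alpha globin IDs, 0.80 for Hbb, 0.74 for Alas2 and 0.69 for Slc4a1, and Slc4a1 was also positive without 8-AG 1 (0.37) or without 8-AG 2 (0.21). With intervals such as -3.76 to 2.65 for Hbb, the data do not place these groups at the same level.

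**Figure D2:**
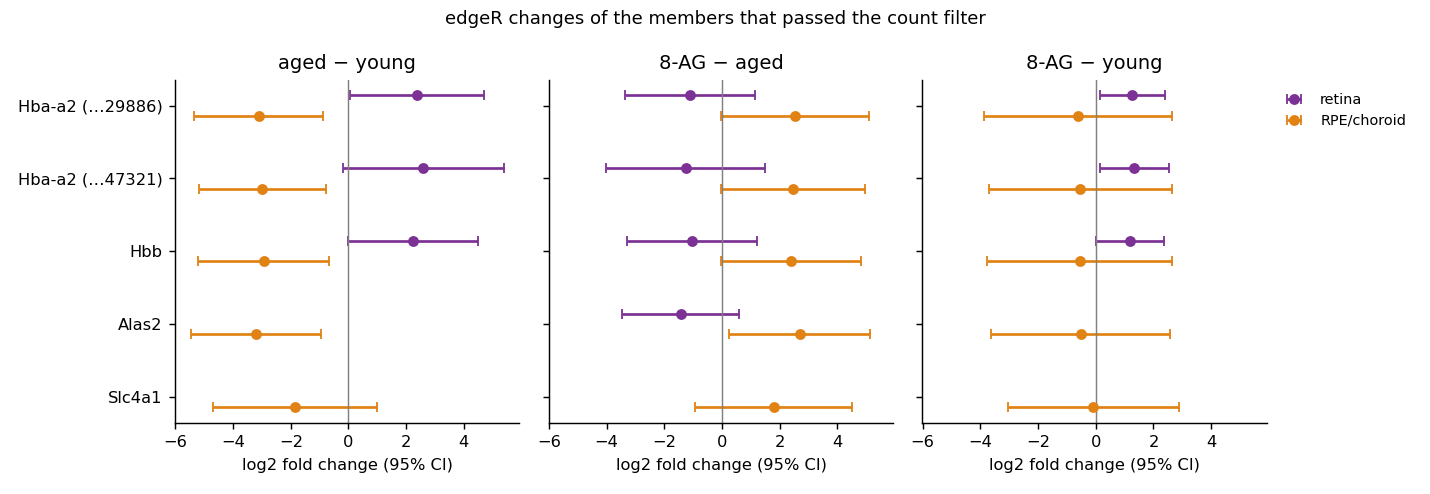
Log2 fold change of each member that passed the count filter, with its 95% confidence interval from edgeR, for 3 comparisons (panels) in retina (purple) and RPE/choroid (orange). In aged against young tissue the retina values lie between 2.24 and 2.60 and the RPE/choroid values between -3.21 and -1.86.

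The changes were then compared between tissues in 1 model. The aging change in RPE/choroid minus that in retina was -5.51 ± 1.26 and -5.60 ± 1.34 for the alpha globin IDs, -5.20 ± 1.25 for Hbb, -6.00 ± 1.45 for Alas2 and -7.51 ± 2.14 for Slc4a1 on the log2 scale (p from 0.00141 to 0.00552, edgeR interaction). The 3 globin IDs, which passed the count filter in the comparisons within each tissue, were called, where 6.78% of 16792 genes were. Alas2 and Slc4a1 were called too, but in retina with age they were too low to be tested, at 2 to 5 and 0 to 2 counts per young library, and passed the filter of this fit through other groups. The adjusted p of the 5 IDs ran from 0.118 to 0.218, and each globin ID was called in every fit that left out 1 library. The model estimated the dispersion (spread between libraries) of a gene once over both tissues. Fitted apart, the common dispersion for these groups was 0.0147 in retina and 0.195 in RPE/choroid. No interaction fit summed the libraries that share a label number. The 8-AG change differed the other way, by 3.44 ± 1.30 for Hbb, 3.62 ± 1.33 and 3.72 ± 1.43 for the alpha globin IDs, 4.11 ± 1.42 for Alas2 and 4.15 ± 1.81 for Slc4a1 (p from 0.0162 to 0.0453, edgeR interaction). The 3 globin IDs and Alas2 were called, beside 2.32% of 16915 genes. Slc4a1 also met the threshold, though it had not passed the filter in retina alone. The adjusted p was 0.99993 for all 5, and none was called without retina aged 2 or without RPE/choroid 8-AG 3. Calls fell to 2 without retina 8-AG 1 or retina 8-AG 3, and to 3 without RPE/choroid aged 1 or RPE/choroid aged 2.

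The members moved together across libraries. In retina, Pearson's r of log2(CPM + 0.5) over the 9 libraries was 0.998 between summed Hba-a2 and Hbb (Spearman's rho 0.983, exact permutation p = 8.27e-06). The other 5 pairs of the 4 genes had r from 0.947 to 0.974 and rho from 0.887 to 0.95, and all 6 had a Benjamini-Hochberg adjusted permutation p of r of at most 0.000334 over 12 pairs in both tissues. Without the 2 libraries farthest from the median, aged 2 and in most pairs young 3, r lay between 0.798 and 0.990. In RPE/choroid, r was 0.998 between Hba-a2 and Hbb (rho 0.983, exact permutation p = 5.51e-06) and 0.990 between either globin and Alas2, and 0.965 to 0.996 without young 3 and 8-AG 3. Slc4a1 followed less closely there, with r of 0.829 to 0.857 and rho of 0.567 to 0.767. Its rho with Hba-a2 and Hbb did not pass the threshold with all 9 libraries (exact permutation p = 0.121 and exact permutation p = 0.108). Its relation by r rested on young 3 and 8-AG 3, without which r was 0.459 to 0.553 (exact permutation p from 0.199 to 0.315).

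Group differences make up part of these correlations, and the values within groups are the stricter ones. With libraries permuted within their groups only, r of the deviations from the group means was 0.921 to 0.995 in retina, 0.988 to 0.998 among Hba-a2, Hbb and Alas2 in RPE/choroid and 0.788 to 0.825 for Slc4a1 there. The adjusted permutation p was at least 0.0556 for every pair, in a scheme with 216 orderings. The values of a library also share its total count and scaling.

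The ratios between members show the same in counts. In retina the reads of Hba-a2 per read of Hbb ran from 1.23 to 1.62 with a median of 1.44, a coefficient of variation of 7.22%, while the levels themselves varied over 14-fold. In RPE/choroid the ratio ran from 2.66 to 3.37 with a median of 3.16 and a coefficient of variation of 7.72%. Alas2 stood at 27.5 to 49.9 reads per 1000 reads of Hbb in RPE/choroid, and at 9.92 to 25.2 in retina, where its counts were low. Slc4a1 was the least constant, at 1.03 to 10.8 reads per 1000 of Hbb in RPE/choroid and 0 to 38.2 in retina. The lowest retina values were the young libraries without a read, and the highest was aged 2.

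**Figure D3:**
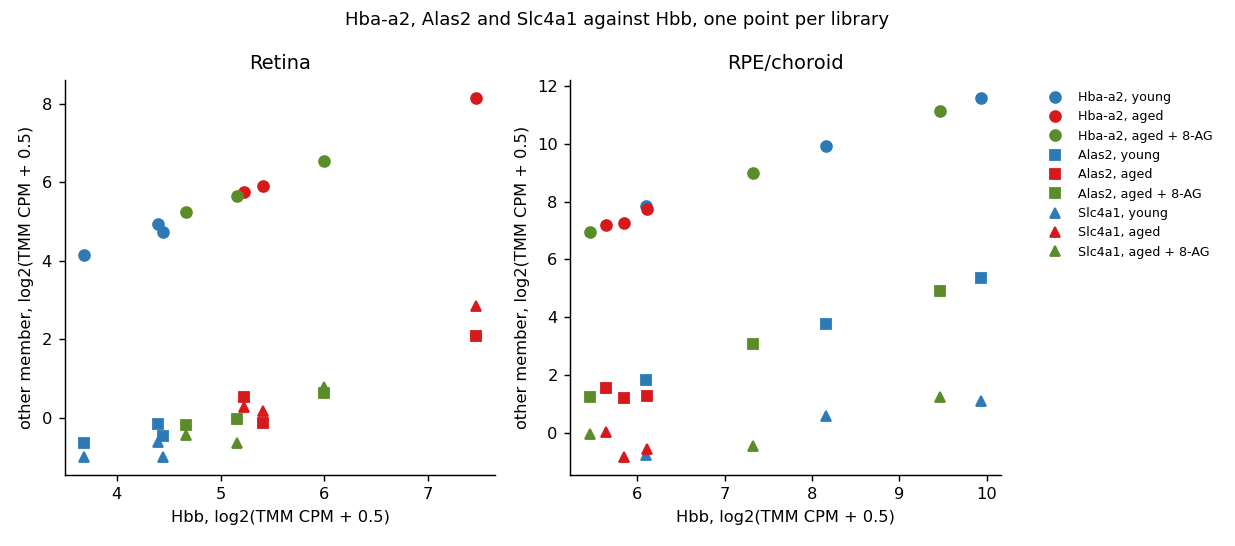
Summed Hba-a2 (circles), Alas2 (squares) and Slc4a1 (triangles) against Hbb in each of the 9 retina (left) and 9 RPE/choroid libraries (right), all as log2(TMM CPM + 0.5), coloured by group. Hba-a2 lies along a line with r of 0.998 in both tissues, and Slc4a1 scatters most in RPE/choroid, with r of 0.838.

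The genes most like the members over the 9 libraries of a tissue were other beta globin genes. In retina LOC689064 (ENSRNOG00000061299, Hbb-bs in RefSeq) had r of 0.992 to the members' mean z-score and Hbb-b1 (ENSRNOG00000047098, named LOC103694857 in the RPE/choroid tables) 0.972, among 13178 genes. The same genes led in RPE/choroid, with r of 0.983 and 0.982 among 13444 genes. These are paralogs of Hbb, and the counting may have divided reads between them. LOC689064 stood at 3.08, 3.46 and 1.62 CPM in young, 6.16, 40.7 and 5.25 CPM in aged and 4.40, 11.6 and 4.95 CPM in 8-AG retina. The next genes were Nubp1 (r = 0.943), Park7 (0.934) and Cldn5 (0.932), the last a tight junction gene of endothelium, in retina, and AABR07051592.2 (0.893), Spats2 (0.873) and Gtf2i (0.846) in RPE/choroid. They varied far less than the globins, Nubp1 only between 12.8 and 17.8 CPM, except AABR07051592.2, which had 0 to 2251 counts, and each is the highest of all these genes over only 9 points.

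Other genes of the haemoglobin pathway were taken from lists by function. Among globin genes (5 IDs, 4 tested in retina), Hbb-b1 differed by 2.71 ± 1.16 in aged against young retina (adjusted p = 0.219, edgeR), was called in 8-AG against young retina at 1.26 ± 0.49 (adjusted p = 0.135, edgeR), and had -2.88 ± 1.21 in aged against young RPE/choroid, where it was not called. All the globin IDs tested in these age comparisons except Hbb-b1 are members, so their median restates the member values. It was 2.49 in aged against young retina and -2.97 in RPE/choroid, beside 0.00 and 0.02 over all genes. Among globins of other tissues, neuroglobin (Ngb) had 0.19 ± 0.15 and cytoglobin (Cygb) 0.03 ± 0.05 in aged against young retina, and neither was called in any comparison. Myoglobin (Mb), the oxygen store of muscle, was at 1294 CPM in RPE/choroid 8-AG 1 and was not called.

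Of the 13 IDs of haem synthesis and mitochondrial iron import, none was called among 12 tested in aged against young retina, beside 8.84% of all genes in either direction. Their median was 0.06 on the log2 scale, and 3 had an adjusted p under 0.05 at a fold change within 1.5, beside 14.6% of all genes with an adjusted p under 0.05 at any fold change. Alas2 alone was called in RPE/choroid, lower with age and higher with 8-AG. Alas1, the form of the first enzyme that all tissues use, had 0.07 ± 0.09 in aged retina and 0.14 ± 0.13 in aged RPE/choroid. Fech, which inserts the iron, had 0.18 ± 0.10 and -0.09 ± 0.13. Neither Alas1 nor Fech was called in any of the 6 comparisons.

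Several of the red cell membrane and skeleton genes (17 IDs) are also expressed in other tissues. In aged against young retina, 1 of 11 tested was called higher, beside 6.45% of all genes, namely Tmod1, which caps actin filaments, at 0.62 ± 0.11 (adjusted p = 0.00541, edgeR), and 1 lower, the water channel gene Aqp1, at -1.32 ± 0.11 (adjusted p = 0.000307, edgeR), where 2.39% of all genes were called lower. Tmod1 was 10.6, 10.8 and 10.7 CPM in young, 15.3, 18.6 and 15.5 CPM in aged and 17.2, 14.3 and 12.9 CPM in 8-AG libraries 1, 2 and 3. It was highest in aged 2, as the globins were, but higher in 8-AG 1 than in 8-AG 2. Aqp1 was 159, 169 and 130 CPM in young and 63.4, 55.1 and 65.6 CPM in aged libraries, lowest in aged 2. Gypc, a glycophorin gene, was called in 8-AG against young retina at 0.91 ± 0.28 (adjusted p = 0.0582, edgeR). None of the 14 tested was called in RPE/choroid with age or with 8-AG. In 8-AG against aged RPE/choroid, 11 of the 14 had a positive log2 fold change and the median was 0.89, beside 0.01 over all genes. Rod markers had a median of 1.01 in this comparison, with 14 of 14 positive, and 8-AG 1 held 56510 CPM of them. The part of other tissue in this shift was not tested.

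Markers of earlier erythroid stages were scarce. Ahsp, the alpha globin chaperone, had 1 to 9 counts in retina, 9 of them in aged 2, and 9 to 134 counts in RPE/choroid, and Klf1, the erythroid transcription factor, had 3 to 19 counts in retina and 23 to 53 in RPE/choroid. Hemgn, an erythroid nuclear protein gene, had 9 counts in retina aged 2 and at most 4 in the other retina libraries. Of the red cell cytoplasm and reticulocyte list (10 IDs) and the erythroid transcription list (7 IDs), none was called in aged against young tissue or in 8-AG against aged tissue, in retina or RPE/choroid. Klf1 had 0.28 ± 0.58 in aged against young retina and 0.35 ± 0.34 in RPE/choroid. Gata1 was not matched by name and has no value here.

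Among genes that handle released haem and haemoglobin, Hmox1, the inducible haem oxygenase, stood at 0.771, 1.36 and 0.743 CPM in young and 2.11, 5.55 and 2.70 CPM in aged retina libraries 1, 2 and 3. It rose with age by 1.86 ± 0.43 on the log2 scale (adjusted p = 0.0189, edgeR). It was also called in 8-AG against young retina at 1.63 ± 0.37 (adjusted p = 0.0172, edgeR), with 4.17, 2.85 and 1.94 CPM in 8-AG libraries. Aged 2 was the highest library, as for the globins, whereas within the 8-AG group 8-AG 1 was highest for Hmox1 and lowest for Hbb. Blvrb, a biliverdin reductase, rose by 0.64 ± 0.13 in aged retina (adjusted p = 0.00925, edgeR), so that 2 of 8 tested IDs of this list were called higher, beside 6.45% of all genes. Haptoglobin (Hp) had -0.20 ± 0.46 there and was not called. In RPE/choroid none of the 10 was called with age or with 8-AG, Hmox1 having -0.03 ± 0.31 in aged against young tissue, haemopexin (Hpx) 0.56 ± 0.43 and the haemoglobin receptor gene Cd163 -0.69 ± 0.74.

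**Figure D4:**
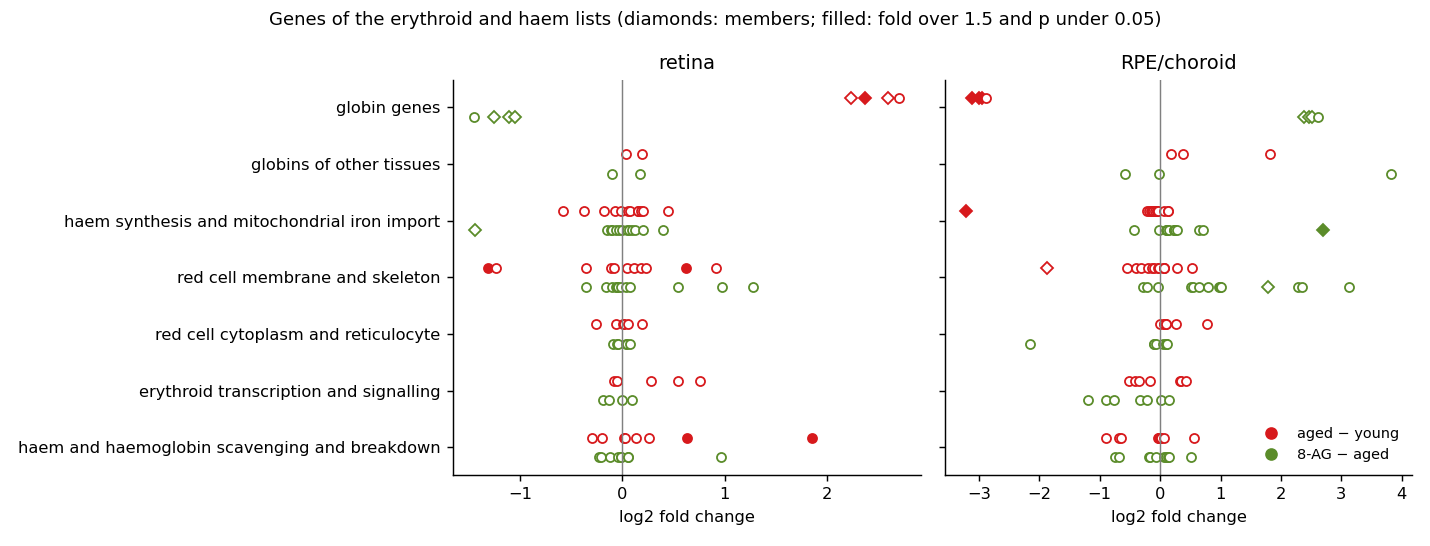
Log2 fold changes of the tested genes of 7 lists in retina (left) and RPE/choroid (right), aged minus young in red and 8-AG minus aged in green. Diamonds are the members and filled symbols were called. The globin genes, all members except Hbb-b1, lie apart from 0 in opposite directions in the tissues. They run from 2.24 to 2.71 in aged retina and from -3.12 to -2.88 in aged RPE/choroid, and no gene of the other lists lies beyond 2 in aged retina.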

How the data were processed

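RNA-seq libraries of retina and RPE/choroid (9 each) were analysed from deposited tables. For retina, the authors deposited expected counts per gene (estimated counts, not all whole) and a TMM-normalized CPM signal table. For RPE/choroid, the authors deposited raw read counts. The labels' processing notes name Bowtie2 2.1.0, RSEM 1.2.15, edgeR and build Rnor_6.0, without saying which was used for which tissue. The authors' own comparison tables hold fold changes, p-values and adjusted values and served only for gene names. No per-sample column was left outside the mapping. Groups came from sample labels.

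Member levels in retina are the authors' CPM, from which a TMM scaling computed here differed by at most 0.674%. In RPE/choroid they are CPM computed from the counts. Expected counts were rounded, genes were filtered with filterByExpr, and each pair of groups was fitted with edgeR 4.0.16 (R 4.3.3, TMM, quasi-likelihood, robust). A gene was called at a fold change over 1.5 and p under 0.05. The tissue differences used 1 edgeR model with an interaction. Correlations used log2(CPM + 0.5) with exact permutation tests (SciPy 1.17.1). The scripts were tested on simulated data. Genes named are the members, called genes of 7 lists (at most 8 per list and comparison), 16 key genes (some are not reported here) and the 5 most alike in each tissue. The members and lists were chosen with earlier results of these data known. Alternatives were DESeq2 1.42.0, limma 3.58.1 on the authors' CPM, other filters, RLE size factors, all groups in 1 fit, a replicate block, unrobust fits, summed paralogs, a rod marker covariate, summed libraries sharing a label number and leaving out each library. Leaving out young 3 and 8-AG 3 of RPE/choroid together was added after seeing the data.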

Additional observations from a re-analysis of the deposited data

Results flagged for a closer look

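For the 3 globin IDs the change with age differed between RPE/choroid and retina at the unadjusted threshold in the interaction test of edgeR. The difference, RPE/choroid minus retina on the log2 scale, was -5.51 and -5.60 for the alpha globin IDs and -5.20 for Hbb. The 8-AG change also differed at that threshold, by 3.62 and 3.72 for the alpha globin IDs and 3.44 for Hbb. Alas2 (-6.00 with age, 4.11 with 8-AG) and Slc4a1 (-7.51 and 4.15) met the threshold too, but had at most 5 and 2 counts per library in young retina and, with age, passed the filter through other groups. None of these 10 values had an adjusted p under 0.05, the lowest being 0.118.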

How the results depend on the processing

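Apart from leaving out 1 library, other settings kept 200 of the counts of calls and correlations close to the reported value and moved 49. Of the values for single member IDs and the counts in 1 direction, 371 held, 34 moved, 19 gained a call, 15 lost one and 1 turned direction. Pearson's r kept sign and side of the threshold with RLE size factors, other pseudocounts and each library left out. In RPE/choroid r with Slc4a1 did not pass it without young 3 and 8-AG 3 together (p from 0.199 to 0.315). The causes were not tested. In aged against young retina, 1 member ID was called, against 5 with DESeq2, 3 without a filter, 5 with all 3 groups in 1 fit, 3 without robust fitting and 3 with limma on the authors' CPM, and 0 with the replicate block. The calls with DESeq2, without a filter and with all groups include Alas2 and Slc4a1, which were too low to be tested in the main fit. In 8-AG against aged retina, genes called were 140, against 317 without a filter and 92 at 10 counts in every library. Genes with adjusted p under 0.05 were 3, against 18 with DESeq2, 10 without a filter and 0 at 10 counts in every library, with the replicate block or without robust fitting, and member IDs called were 0, against 1 with DESeq2 and 2 with the block. In 8-AG against young retina, 3 IDs were called, against 0 with all groups in 1 fit, 1 with the block and 1 with paralogs summed.

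In aged against young RPE/choroid, genes called were 217, against 384 with DESeq2, 364 without a filter, 131 with all groups, 138 with the block and 1120 with a rod marker covariate. Adjusted p under 0.05 was reached by 0, against 29 with DESeq2 and 1 with the covariate, and 4 member IDs were called, against 2 with the block. In 8-AG against aged RPE/choroid, genes called were 269, against 755 with DESeq2, 503 without a filter, 465 with all groups, 1024 with the covariate and 85 with libraries sharing a label number summed, and DESeq2 gave 81 at adjusted p under 0.05 against 0. Member IDs called were 1, against 4 with DESeq2, 4 without a filter, 3 without robust fitting and 0 with the block, with the summed libraries, or without young 3 and 8-AG 3 (chosen after seeing the data). In 8-AG against young RPE/choroid, genes called were 322, against 855 with DESeq2, 597 without a filter, 512 with all groups, 137 with the block, 3293 with the covariate, 112 with summed libraries and 80 without young 3 and 8-AG 3, DESeq2 gave 98 at adjusted p under 0.05 against 0, and the block called 1 member ID and turned Slc4a1 to 0.0861. Across tissues, 27 genes had an aging difference with adjusted p under 0.05, against 4 with RLE size factors and 2 with the block.

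Leaving out 1 library at a time gave 1243 to 2318 genes with adjusted p under 0.05 (2127 with all libraries) and 0 to 3 member IDs in aged against young retina. It gave 143 to 256 genes called, 0 to 3 with adjusted p under 0.05 and 0 to 1 IDs in 8-AG against aged retina, with log2 fold changes of -1.53 to 0.0243 and -1.78 to 0.22 for the alpha globin IDs and -1.496 to 0.0593 for Hbb. In 8-AG against young retina it gave 1029 to 2450 genes with adjusted p under 0.05 (2164 with all) and 0 to 3 IDs. In RPE/choroid it gave 213 to 414 genes called and 1 to 5 IDs for aged against young, 86 to 733 genes and 0 to 4 IDs for 8-AG against aged, and 115 to 1202 genes for 8-AG against young, where log2 fold changes ran from -2.21 to 0.70 and -2.11 to 0.72 for the alpha globin IDs, -2.13 to 0.80 for Hbb, -1.94 to 0.74 for Alas2 and -1.38 to 0.69 for Slc4a1. The aging difference between tissues gave 0 to 49 genes with adjusted p under 0.05. The 8-AG difference gave 267 to 1260 genes called, 0 to 3 with adjusted p under 0.05 and 0 to 5 IDs.

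The replicate block rests on a shared number only. Correlations of deviations between same-numbered libraries ran from -0.622 to 0.698, and every library correlated best with its own number only in 8-AG against aged retina (3 of 3). Counts of Slc4a1 and Alas2 in retina limit what can be seen there, and Slc4a1 and in most comparisons Alas2 were too low to be tested.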

Other observations

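Alox15, a lipoxygenase gene active in reticulocytes, and Lgals5, a galectin gene of rat reticulocytes, were looked up after the values of the members had been seen. They were reached through the search for genes most like the members in these same libraries. That their high libraries match those of the members follows from this choice and is not a separate result. In retina Alox15 had 191 counts in aged 2 and at most 23 in any other library. Lgals5 had 13 counts in retina aged 2 and at most 3 in the others. In RPE/choroid Alox15 was highest in 8-AG 3 and young 3, with 160 and 144 counts, and Lgals5 in young 3 and 8-AG 3, with 157 and 109 counts. RPE/choroid 8-AG 1 held 1294 CPM of Mb, the myoglobin gene, and 56510 CPM of summed rod markers, against 917 and 889 CPM of rod markers in 8-AG 2 and 3.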
